A study of Mus musculus with 8 samples.

Results

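The genes examined were 9 genes of megakaryocytes and platelets, out of 18193 genes with a probe set of their own on the arrays: Pf4, Ppbp, Gp9, Gp1bb, Itga2b, Itgb3, Vwf, Treml1 and Thbs1. They were taken by name as platelet surface glycoproteins and alpha granule proteins, with Thbs1 added, and every probe set that the platform annotation assigned to exactly 1 of them was used, which gave 12 probe sets. Their levels were compared between spleen cells of 4 Yaa samples (strain B6.SB-Yaa/J, a C57BL/6 background whose Y chromosome came from the SB/Le strain) and of 4 wild-type samples (C57Bl/6J). All mice were males of 8 weeks with no treatment stated. By the design text each sample was 1 spleen, except Yaa 3, which pooled 2, although the source name of Yaa 2 has the plural "males". Spleens were pressed through a nylon mesh, red cells were lysed, and total RNA was hybridised to Affymetrix mouse expression arrays, 1 array per sample. None of the 9 genes lies on the X or Y chromosome in the GRCm38.p6 annotation. The comparison asks whether spleens with the Yaa chromosome, which carries a copy of the X segment that includes Tlr7, differ in these genes.

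Megakaryocytes are large polyploid cells that shed platelets, and in mice they persist in the red pulp of the spleen as well as in the bone marrow. Platelets have no nucleus, carry RNA inherited from the megakaryocyte, and store adhesive proteins and chemokines in alpha granules. Their adhesion to vessel walls runs through the glycoprotein Ib-IX-V complex, which binds von Willebrand factor, and their aggregation through the integrin alphaIIb beta3, which binds fibrinogen. Most of the 9 genes are largely restricted to this lineage, but endothelial cells also make Vwf, and macrophages, fibroblasts and endothelial cells also make Thbs1. In bulk RNA, fewer platelets or megakaryocytes and less RNA per cell cannot be told apart.

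The arrays differed in overall level and in cell makeup. The deposited signal averaged 106.9 to 163.3 per Yaa array and 144.2 to 193.1 per wild-type array once the top and bottom 2% of probe sets were trimmed. The values below are therefore quantile-normalised signals, and log2 values are log2(signal + 16). Yaa 3 stood apart: its summed signal over 9 B cell markers was 444, against 14353 to 25389 in the other Yaa samples and 15156 to 20605 in wild type, and over 8 T cell markers it was 309, against at least 4763 in every other sample. A spleen label would call for abundant lymphocyte RNA, and Yaa 3 had little. Yaa 2 had the lowest erythroid sum, 19229 over 11 markers, against 49193 to 62810 in the other 7 samples. Values without these samples, or with limma's array weights (0.22 for Yaa 2 and for Yaa 3), therefore stand beside the results below that they move most.

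Of the 9 genes, 6 have an entry in the RefSeq promoter table of GRCm38.p6, which holds 250 bases before and 50 after each gene start. The 4 shown here belong to genes with a probe set that was below every wild-type array in 3 of 4 Yaa arrays. Ppbp and Pf4 are adjacent genes on the same strand. Sequences run 5′ to 3′ along the gene's strand. Capitals mark matches on either strand to GATA motifs (AGATAA with its variant AGATAG, besides TGATAA with its variant TGATAG) and to ETS motifs (CAGGAA besides its variant CCGGAA), the families of Gata1 and Fli1, which are factors of megakaryocyte gene expression.
Pf4 (chr5:90772185-90772484, plus strand): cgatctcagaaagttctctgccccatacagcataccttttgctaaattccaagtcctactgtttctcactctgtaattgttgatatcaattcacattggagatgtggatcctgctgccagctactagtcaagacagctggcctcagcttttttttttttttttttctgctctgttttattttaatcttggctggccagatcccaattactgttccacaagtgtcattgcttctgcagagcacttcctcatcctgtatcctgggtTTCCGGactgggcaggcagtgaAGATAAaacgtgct
Ppbp (chr5:90768268-90768567, plus strand): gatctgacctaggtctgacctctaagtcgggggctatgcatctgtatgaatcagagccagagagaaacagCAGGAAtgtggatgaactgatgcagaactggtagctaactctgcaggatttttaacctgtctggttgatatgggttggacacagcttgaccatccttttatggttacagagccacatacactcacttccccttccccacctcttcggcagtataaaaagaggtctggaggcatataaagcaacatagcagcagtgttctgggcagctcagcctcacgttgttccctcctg
Gp1bb (chr16:18622354-18622653, minus strand): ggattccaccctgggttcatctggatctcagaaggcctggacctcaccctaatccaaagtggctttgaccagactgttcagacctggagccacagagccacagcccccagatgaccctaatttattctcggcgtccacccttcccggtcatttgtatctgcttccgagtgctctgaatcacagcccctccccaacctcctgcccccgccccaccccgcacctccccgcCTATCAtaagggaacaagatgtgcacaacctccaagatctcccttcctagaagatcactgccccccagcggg
Itga2b (chr11:102469834-102470133, minus strand): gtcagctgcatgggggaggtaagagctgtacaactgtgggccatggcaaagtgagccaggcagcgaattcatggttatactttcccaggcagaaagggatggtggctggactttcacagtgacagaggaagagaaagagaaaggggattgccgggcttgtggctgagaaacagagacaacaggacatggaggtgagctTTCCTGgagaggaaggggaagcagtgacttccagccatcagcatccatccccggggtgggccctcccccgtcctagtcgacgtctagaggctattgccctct
GATA motifs were found in 2 of the 6 member promoters (Pf4 and Gp1bb) and in 29.8% of all 32851 promoters of the table. ETS motifs were found in 4 of the 6 (Pf4, Ppbp, Itga2b and Treml1) and in 41.4% of all promoters. No printed GATA match overlaps an ETS match. These are letter matches and not measured binding.

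The platelet chemokines had lower means in Yaa, with Yaa 3 apart from the other Yaa arrays. Pf4 encodes platelet factor 4, a heparin-binding chemokine of alpha granules. Its signal was 241, 184, 387 and 167 in Yaa 1 to 4, against 283, 247, 272 and 307 in wild type 1 to 4. Yaa 1, 2 and 4 lay below every wild-type array and Yaa 3 above all of them. The log2 fold change was -0.24 ± 0.24 (SE; 95% interval -0.78 to 0.30; limma adjusted p = 0.997), and it ranged from -0.47 without Yaa 3 to -0.09 without Yaa 4, with -0.13 without Yaa 2. Ppbp encodes pro-platelet basic protein, which is cut to chemokines that attract neutrophils. Its signal was 145, 220, 277 and 165 in Yaa, against 259, 271, 295 and 403 in wild type. Here too Yaa 1, 2 and 4 were below every wild-type array, but Yaa 3 fell inside the wild-type range. Ppbp had a log2 fold change of -0.59 ± 0.22 (SE; 95% interval -1.09 to -0.09), with an unadjusted p of 0.026 and a limma adjusted p of 0.997. With array weights it was -0.89 ± 0.18 (SE; limma adjusted p = 0.062). With single samples left out it ranged from -0.74 without Yaa 3 to -0.45 without Yaa 1.

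The subunits of the glycoprotein Ib-IX-V complex followed no common course. Gp9, the glycoprotein IX subunit, had signals of 134, 59.1, 232 and 190 in Yaa, against 207, 178, 153 and 196 in wild type. The groups overlapped, with Yaa 2 the lowest and Yaa 3 the highest of all 8 arrays. Its log2 fold change was -0.36 ± 0.33 (SE; limma adjusted p = 0.997), and it ranged from -0.59 without Yaa 3 to -0.01 without Yaa 2. Gp1bb encodes the beta chain of glycoprotein Ib and was read by 2 probe sets that differed in sign. The first (1422977_at) had 25.9, 29.2, 66.2 and 21.5 in Yaa, against 39.6, 50.7, 41.0 and 55.5 in wild type. Yaa 1, 2 and 4 were again below every wild-type array and Yaa 3 above them, and the log2 fold change came to -0.34 ± 0.25 (SE; limma adjusted p = 0.997), with a range from -0.61 without Yaa 3 to -0.21 without Yaa 4. The second (1456427_at) had 34.9, 22.7, 42.5 and 31.0 in Yaa, against 39.4, 15.4, 31.7 and 23.8 in wild type, a log2 difference of 0.18 ± 0.22 (SE; limma adjusted p = 0.997). It came to 0.28 without Yaa 2, 0.09 without Yaa 3, 0.31 without wild type 1 and 0.03 without wild type 2. All its signals were low, close to the level of 25.7 at which probe sets were left out of the tests.

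The tested probe sets of the integrin chains had lower means in Yaa, with 95% intervals that included 0. Itga2b, the alphaIIb chain (CD41), had signals of 93.4, 81.8, 125 and 89.2 in Yaa, against 108, 115, 112 and 120 in wild type. Yaa 1, 2 and 4 lay below the wild-type arrays, which differed little among themselves, and Yaa 3 lay above them. The log2 fold change was -0.21 ± 0.14 (SE; 95% interval -0.53 to 0.12; limma adjusted p = 0.997), with -0.32 without Yaa 3 and -0.14 without Yaa 2. Itgb3, the beta3 chain, which also pairs with the alphaV chain on other cells, had 46.4, 101, 35.5 and 54.9 in Yaa, against 79.4, 71.6, 90.3 and 56.1 in wild type with the probe set that was tested (1455257_at). Yaa 2 was the highest array here and Yaa 3 the lowest, the reverse of their order for Itga2b. The log2 fold change of Itgb3 was -0.32 ± 0.25 (SE; 95% interval -0.89 to 0.26; limma adjusted p = 0.997), -0.55 without Yaa 2 and -0.16 without Yaa 3. The other Itgb3 probe set (1421511_at) was the 1 member under the filter on dim probe sets, with signals of 3.98 to 38.6 in Yaa and 3.61 to 30.1 in wild type. Its groups overlapped, and its mean was the higher in Yaa (25.7, against 15.6 in wild type), opposite in sign to the tested one.

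At equal array weights Vwf had the lowest log2 fold change of the 9 genes, whereas with array weights Ppbp did (-0.89, against -0.68 for Vwf). Vwf encodes von Willebrand factor, the multimeric ligand of glycoprotein Ib that is stored in platelet alpha granules and in endothelial cells. Its signal was 70.2, 42.9, 86.5 and 47.9 in Yaa, against 108, 117, 68.2 and 135 in wild type. Wild type 3 fell among the Yaa arrays, and the other wild-type arrays were above all 4 Yaa arrays. The log2 fold change of Vwf was -0.66 ± 0.24 (SE; 95% interval -1.20 to -0.12), with an unadjusted p of 0.021 and a limma adjusted p of 0.978. It was -0.82 without Yaa 3 and -0.54 without Yaa 2. With any single sample left out it lay between -0.83 and -0.54. The 9 tested endothelial markers had a median log2 fold change of 0.03, with 3 lower and 6 higher (with array weights -0.08, with 7 lower and 2 higher), and their summed signal was 743 to 1685 in Yaa and 882 to 1097 in wild type. These markers had all passed the filter on dim probe sets, and their part in the Vwf values was not tested. Treml1, a receptor of alpha granules that reaches the platelet surface on activation, had 8.06, 53.5, 36.6 and 40.6 in Yaa, against 28.5, 17.5, 36.4 and 39.8 in wild type. Yaa 1 and Yaa 2 were the lowest and the highest array, and the log2 fold change came to 0.05 ± 0.33 (SE; limma adjusted p = 1), with a sign that turned in 8 of 20 other settings.

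**Figure D1:**
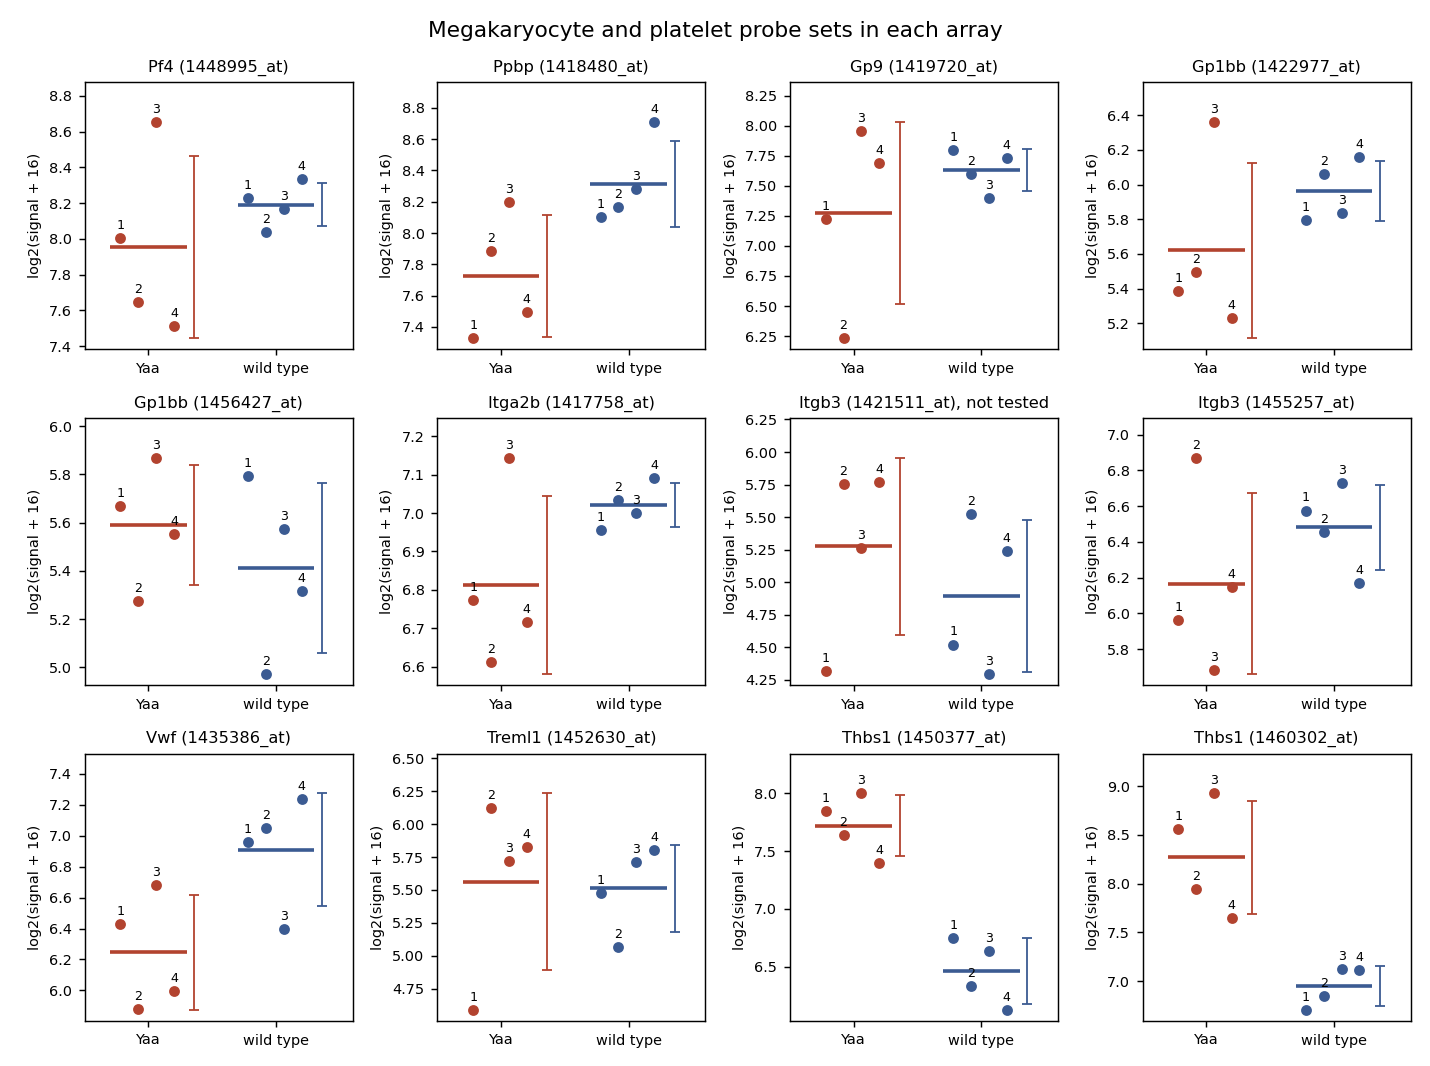
Signal of each of the 12 member probe sets in each array, as log2(signal + 16) on the vertical axis, with Yaa arrays (red) left of wild-type arrays (blue) and the replicate number beside each point. Horizontal lines are group means and vertical bars the SD (n = 4 each). Both Thbs1 probe sets separate the groups, while Yaa 3 stands above Yaa 1, 2 and 4 for Pf4, Ppbp, Gp9, Gp1bb, Itga2b and Vwf.

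Thbs1 had the largest difference of the 9 genes, and it was higher in Yaa, where 7 of the 9 other tested probe sets had lower means. It encodes thrombospondin 1, an adhesive alpha granule glycoprotein that activates latent transforming growth factor beta and that monocytes and macrophages also make. With the first probe set (1450377_at) the signal was 214, 183, 239 and 152 in Yaa, against 91.6, 64.8, 83.7 and 53.9 in wild type. With the second (1460302_at) it was 361, 230, 470 and 185 in Yaa, against 88.2, 99.1, 124 and 122 in wild type. Every Yaa array was above every wild-type array with both. The log2 fold changes were 1.25 ± 0.19 (SE; 2.39-fold; 95% interval 0.83 to 1.68) and 1.32 ± 0.27 (SE; 2.50-fold; 95% interval 0.71 to 1.94). They ranked 15 and 44 by p among 22518 tested probe sets, yet did not pass over the whole table (limma adjusted p = 0.145 and 0.453).

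Thbs1 passed the threshold when Yaa 2 and Yaa 3 counted for less. The Yaa side of these fits rested mainly or only on Yaa 1 and Yaa 4. With limma array weights 0.453% of all probe sets were called higher and 0.182% lower. Thbs1 then rose by 1.33 ± 0.17 and 1.30 ± 0.21 (SE; limma adjusted p = 0.0084 and 0.022) on the log2 scale with the 2 probe sets. Without Yaa 2 and Yaa 3 it rose by 1.17 ± 0.21 (SE; limma adjusted p = 0.045) with the first, and the second had 1.16 ± 0.24 (SE; limma adjusted p = 0.076); 0.329% of all probe sets were then called higher and 0.138% lower. The fold change stayed between 0.92 and 1.53 in all 20 other settings and both probe sets.

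Markers of monocytes and macrophages moved in the same direction as Thbs1. All 10 tested markers had higher means in Yaa, with a median log2 fold change of 0.76, against -0.02 over all 10340 tested genes, and none passed over the whole table. With array weights the median was 0.59, with 9 of 10 higher, and 4 passed (Cd14, Fcgr4, Lyz1 and Lyz2). Of all probe sets, 0.453% were called higher and 0.182% lower with these weights. Their summed signal was 22076, 23196, 29766 and 15833 in Yaa, against 12811, 13992, 14944 and 14691 in wild type. Thbs1 and this sum were both highest in Yaa 3 and lowest among Yaa arrays in Yaa 4. That order was not particular to them, as Pf4 (387 and 167) and the summed platelet markers (1731 and 992) had it too. In wild type 1, where the monocyte sum was lowest (12811), the first Thbs1 probe set had its highest wild-type signal (91.6) and the second its lowest (88.2). Cd14, a co-receptor for lipopolysaccharide on monocytes and macrophages, differed on the log2 scale by 2.44 ± 0.33 (SE; limma adjusted p = 0.098). Lyz2, lysozyme of myeloid cells, had 0.98 ± 0.19 (SE; limma adjusted p = 0.412). The 12 tested neutrophil markers were also all higher on average (median log2 fold change 1.45; 10 passed with array weights), with a summed signal of 13294 to 56171 in Yaa and 8702 to 14419 in wild type. The tested markers of both lists had all passed the filter on dim probe sets, and their part in the Thbs1 difference was not tested.

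Of the 11 tested member probe sets, 0 passed limma's test over the whole table, where 0.00444% of probe sets were called higher (the 1 probe set called was no member) and 0% lower. At an unadjusted p under 0.05 there were 2 higher, both of Thbs1, and 2 lower, Ppbp and Vwf, against 2.97% and 1.76% of all probe sets. Groups did not overlap in 2 members that were higher, again Thbs1, and in 0 that were lower, against 2.43% and 1.67%. Apart from Thbs1, 7 of 9 tested probe sets had a lower mean in Yaa, with a median log2 fold change of -0.32, where 52.4% of all probe sets were lower and the median was -0.01. With array weights 2 members were called higher and 0 lower, against 0.453% and 0.182% of all probe sets.

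**Figure D2:**
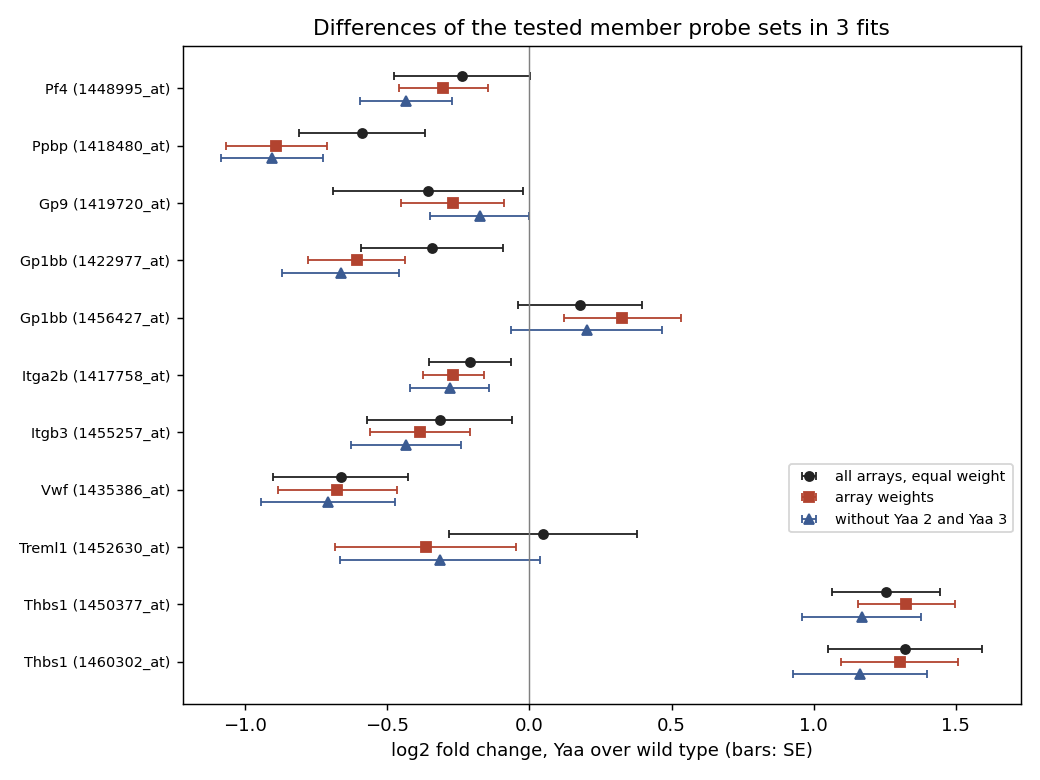
Log2 fold change of Yaa over wild type (horizontal axis) for the 11 tested member probe sets, with SE bars, from all arrays at equal weight (black circles), with array weights (red squares) and without Yaa 2 and Yaa 3 (blue triangles). Both Thbs1 probe sets lie between 1.16 and 1.33 in the 3 fits, Ppbp between -0.91 and -0.59, and Treml1 lies on either side of 0.

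The platelet genes varied more among Yaa arrays than among wild-type arrays, as did most of the table. The SD of log2 signal was larger in Yaa for 9 of the 11 tested member probe sets (81.8%) and for 82.8% of all tested probe sets. Among the 9 tested probe sets of genes other than Thbs1, Yaa 3 was the highest of the 8 arrays for 5 (Pf4, Gp9, Itga2b and both of Gp1bb) and the lowest for Itgb3. Yaa 2 was lowest for Gp9, Itga2b and Vwf and highest for Itgb3 and Treml1.

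The broader list of 11 tested megakaryocyte and platelet markers holds 7 of the member genes, so that its values are not separate from theirs. Its summed signal was 1047, 1025, 1731 and 992 in Yaa, against 1397, 1366, 1384 and 1666 in wild type. Yaa 1, 2 and 4 lay below every wild-type array and Yaa 3 above them, although by mean log2 signal Yaa 3 (7.04) lay just below wild type 4 (7.06). Without Yaa 3, 5 member probe sets were lower at an unadjusted p under 0.05, against 3.06% of all probe sets. There were 3 without Yaa 2 (4.88% of all), 1 without Yaa 1 (1.64%) and 0 without Yaa 4 (1.55%). There were 2 without wild type 1 (1.18%), 1 without wild type 2 (1.09%), 2 without wild type 3 (1.16%) and 0 without wild type 4 (1.1%). After adjustment 0 passed in each of these fits. Yaa 3 was also the highest array for the endothelial list (1685, against 743 to 970 in the other Yaa arrays and 882 to 1097 in wild type) and for the stromal list (1392, against 393 to 447 in the other Yaa arrays and 406 to 588 in wild type). It was the lowest for both lymphocyte lists, as given above. The part of the low lymphocyte marker signal in the platelet values of Yaa 3 was not tested.

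**Figure D3:**
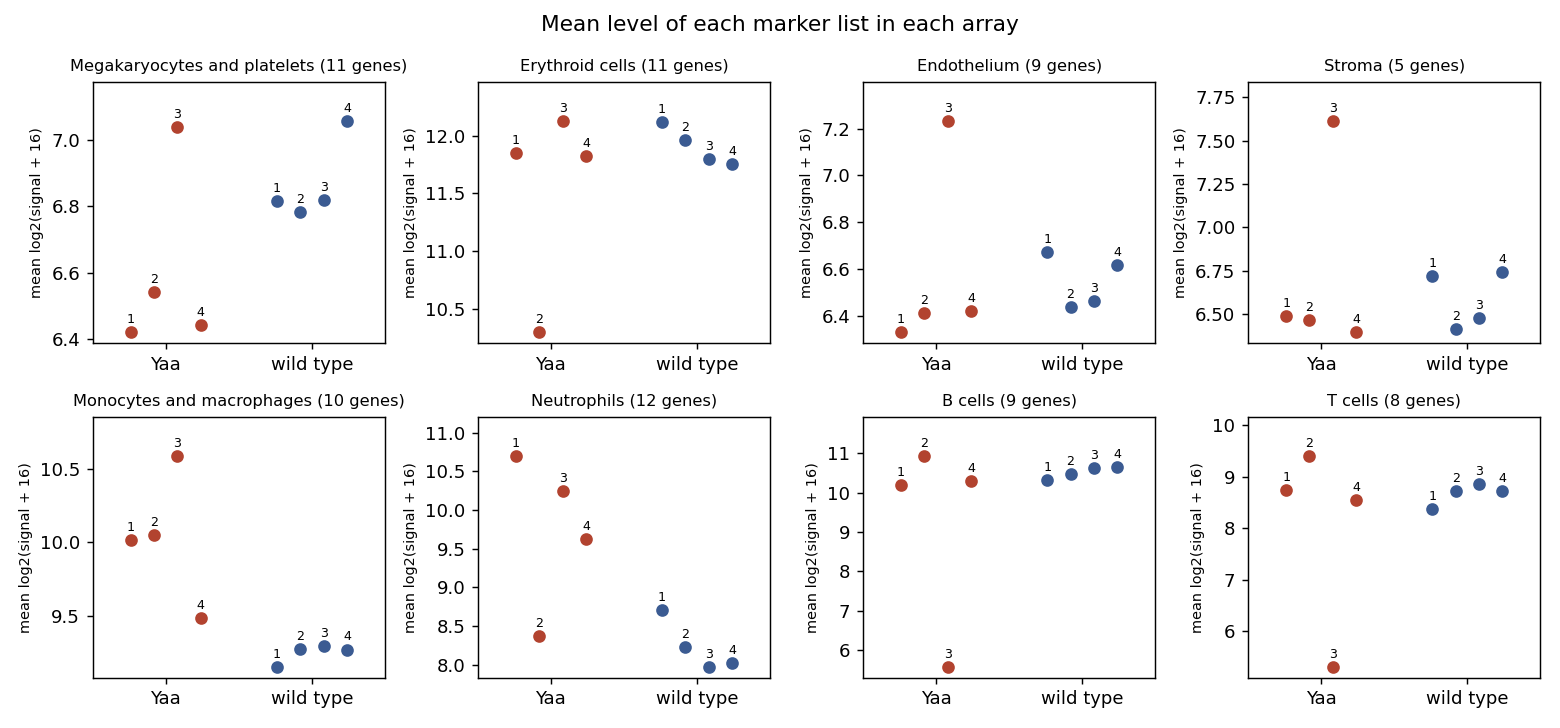
Mean log2(signal + 16) of 8 marker lists in each array, Yaa (red) left of wild type (blue), with the replicate number beside each point and the number of tested genes in each title. Yaa 3 is the highest Yaa array for the megakaryocyte, erythroid, endothelial, stromal and monocyte lists and the lowest for B and T cells.

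Erythroid cells share a progenitor with megakaryocytes, and their markers had lower means in Yaa too. All 11 tested had a log2 fold change below 0 (median -0.38), and 0 passed the test, while with array weights the median was -0.07 with 8 lower. Their sum was 52805, 19229, 62810 and 51978 in Yaa, against 61024, 54241, 51843 and 49193 in wild type, with Yaa 2 the lowest and Yaa 3 the highest array. Yaa 3 was also the highest for the platelet sum, which was below every wild-type array in Yaa 1, Yaa 2 and Yaa 4.

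Beyond the 9 genes, 41 of 54 other listed platelet genes had a tested probe set, and limma called 0 of them, with 2 higher and 1 lower at an unadjusted p under 0.05, where 3.23% and 1.62% of all genes were so listed. Their median log2 fold change was -0.001, with 21 lower and 20 higher. Groups did not overlap in 2 of them, F13a1 and Selp, which were higher, and in 0 that were lower, against 2.61% and 1.86% of all genes. The list mixes genes of platelets alone with genes that many blood cells use.

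Among 15 tested surface receptors and signalling genes, 6 were lower and 9 higher, or 10 and 5 with array weights. Gp6 and Clec1b, the collagen and podoplanin receptors of platelets, had log2 fold changes of -0.40 ± 0.27 and -0.24 ± 0.25 (SE), and Fermt3, kindlin 3 of integrin activation, had -0.10 ± 0.09 (SE). Selp, P-selectin of alpha granules and of endothelium, had signals of 47.5, 38.6, 50.5 and 39.8 in Yaa, against 36.9, 27.9, 25.9 and 26.5 in wild type. Every Yaa array was above the wild-type arrays, with a log2 difference of 0.41 ± 0.15 (SE; limma adjusted p = 0.997). The tetraspanin Cd9 had 0.36 ± 0.20 (SE). Gp5, the remaining chain of the von Willebrand factor receptor that was tested, had 0.01 ± 0.22 (SE).

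Of 11 tested granule genes, 8 had higher means in Yaa, or 6 with array weights. F13a1, the A subunit of coagulation factor XIII, which macrophages also make, had signals of 340, 245, 597 and 172 in Yaa, against 156, 124, 127 and 152 in wild type. The groups did not overlap, and the log2 fold change came to 1.05 ± 0.32 (SE; limma adjusted p = 0.855). F5, coagulation factor V, had 108, 90.1, 243 and 41.9 in Yaa, against 45.4, 51.7, 59.2 and 59.5 in wild type, a log2 difference of 0.77 ± 0.38 (SE; limma adjusted p = 0.997), with Yaa 4 below all wild-type arrays. As with Thbs1, the highest array for F13a1 and F5 was Yaa 3. Sparc, a matrix protein also on the stromal list, had 0.41 ± 0.50 (SE; 0.15 with array weights), and Vps33b, needed for granule formation, had 0.13 ± 0.16 (SE).

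In the cytoskeleton group 6 of 8 genes were lower, or 5 with array weights, where 54.2% of all genes were lower at equal weights. The median log2 fold change of the group was -0.02, the same as over all tested genes. Myl9, a myosin light chain of platelets and smooth muscle, had signals of 12.4, 68.6, 34.7 and 17.6 in Yaa, against 62.2, 49.5, 71.6 and 97.8 in wild type. Only Yaa 2 fell inside the wild-type range, and the log2 fold change came to -0.91 ± 0.34 (SE; limma adjusted p = 0.997). With array weights it was -1.36, and Myl9 passed the threshold as lower (limma adjusted p = 0.045), where 0.182% of all probe sets were called lower. That fit gives Yaa 1 and Yaa 4 more weight (2.23 and 1.13) than Yaa 2 and Yaa 3 (0.22 each). The Myl9 signals of Yaa 1 and Yaa 4 were dim, below the filter level of 25.7. Tubb1, the beta tubulin of the platelet marginal band, had -0.20 ± 0.24 (SE), Rgs18, a regulator of G protein signalling in platelets, -0.19 ± 0.25 (SE), and Flna, filamin A, 0.23 ± 0.23 (SE).

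Of 7 tested transcription factors, 6 had lower means, with a median log2 fold change of -0.37. Runx1 had -0.33 ± 0.15 (SE), with an unadjusted p of 0.061. Nfe2 had -0.62 ± 0.40, Fli1 -0.48 ± 0.44 and Gata1 -0.50 ± 0.56 (SE), each with a limma adjusted p of 0.997. With array weights the median was -0.08, Nfe2 had -0.08, Gata1 -0.12 and Fli1 -0.34, and Runx1 kept -0.32. The lowest limma adjusted p of the 7 with these weights was 0.410, for Runx1. Its signal in Yaa 4 (154) lay inside the wild-type range (138 to 160). Nfe2 and Gata1 also act in erythroid cells, and both were lowest in Yaa 2, at 564 and 223, the array with the lowest erythroid sum. Fli1, which lymphocytes also express, was lowest in Yaa 3, at 111, against 333 to 652 in the other Yaa arrays and 354 to 548 in wild type. The part of erythroid cells and lymphocytes in these values was not tested.

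**Figure D4:**
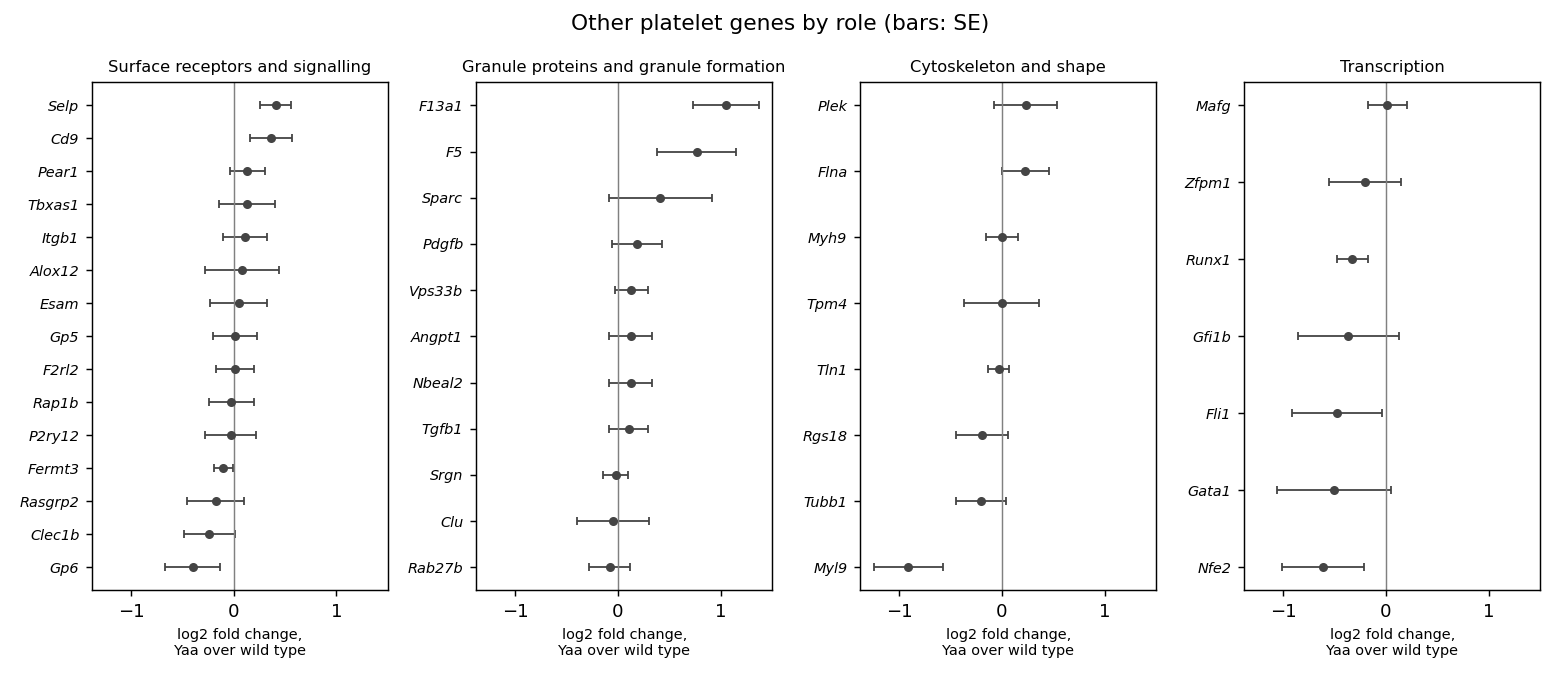
Log2 fold change of Yaa over wild type (horizontal axis) with SE bars for the 41 other tested platelet genes in 4 role groups, ordered by value within each. F13a1 at 1.05 and F5 at 0.77 lie farthest to the right and Myl9 at -0.91 farthest to the left.

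The genes whose course over the 8 arrays was most like the platelet profile were sought by Pearson correlation with the mean centred log2 signal of 7 genes (the 9 without Vwf and Thbs1). Among 10331 other genes these were Ube2v1, Cul5, Zfp944, Adamdec1 and Pskh1, with r between 0.93 and 0.97, values that are high because the genes were picked for them. Of the members, Ppbp had the highest r with this profile (0.94), followed by Gp1bb (0.88), Itga2b (0.86) and Pf4 (0.74). Gp9 had 0.53, Treml1 0.40 and Itgb3 -0.01. These 7 genes make up the profile, so their r is raised by their own values. Outside the profile, Vwf had 0.66 and Thbs1 -0.36. The points share the 8 arrays and their normalisation, and all arrays of 1 group share a strain.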

How the data were processed

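Spleen cell RNA of 4 Yaa and 4 wild-type samples was measured on 1 array each. The authors deposited MAS5 signals (named in the submitters' processing notes), which are linear intensity values, 1 per probe set. Version, scaling target and filters were not given in the sources used here. In all there were 45101 probe sets, of which 64 were controls. Because the trimmed means of the arrays did not lie within 10% of their median, arrays were quantile normalised. Values were taken as log2(signal + 16), so that changes of dim probe sets are understated. Controls were left out, as were probe sets whose mean log2 signal over all arrays did not exceed the median, leaving 22518 probe sets and 10340 genes (for genes with several, the tested probe set with the highest mean). Group differences (Yaa minus wild type) were fitted in limma 3.58.1 (R 4.3.3), lmFit and eBayes with trend, Benjamini-Hochberg over all tested probe sets, threshold 0.05. Per the series' design text, samples were extracted and hybridised separately, 1 of them a pool of 2 spleens. The number of arrays limits the precision.

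Names came from the platform annotation, updated through Entrez IDs to GRCm38.p6: 34945 probe sets had 1 symbol, 932 several and 9160 none. Promoters were read from RefSeq. No arrays were identical (0 pairs; correlations 0.81 to 0.99). Same-numbered samples did not deviate together (correlations of -0.37 to 0.02), and the main fit did not pair them. These correlations cannot exclude a pairing, because the cell makeup of Yaa 2 and Yaa 3 also enters them. The members and lists were chosen with earlier results of these data known. Named were all members, up to 4 genes per list in order of p, and the 5 genes most like the platelet profile; others were chosen after their values were seen, namely Gp5 and Clec1b. The procedure was tested on simulated data. The simulation gave both groups the same spread, so it does not cover the wider spread among Yaa arrays or the makeup of Yaa 2 and Yaa 3. Alternatives were other pseudocounts, filters, scalings and variance models, array weights, a replicate block and samples left out. Figures were drawn with matplotlib 3.10.9 (Python 3.11.15).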

Additional observations from a re-analysis of the deposited data

How the results depend on the processing

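Of 220 values from recomputing the 11 member fold changes under 20 other settings, 209 kept their sign and side of the threshold, 3 passed it (Thbs1, above), and 8 changed sign, all of Treml1: -0.027 with log2(signal + 1), -0.049 with the values as deposited, -0.36 with array weights, -0.31 without Yaa 2 and Yaa 3, and -0.14 to 0.37 with single samples left out. Member probe sets past the threshold were 0 in the other settings and with any single sample left out, against 2 with array weights and 1 without Yaa 2 and Yaa 3; for the other platelet genes these last counts were 1 and 1, and 0 otherwise. Over the whole table the count of 1 became 143 with array weights, 105 without Yaa 2 and Yaa 3, 0 with log2(signal + 1) and 0 with the replicate block, and 1 to 31 with single samples left out (31 without Yaa 2, 11 without Yaa 4, 2 without Yaa 1). The cause of these changes was not tested. With log2(signal + 1) 656 probe sets were higher and 376 lower at an unadjusted p under 0.05, and with the block 469 and 262. The replicate block changed no call among the members. The median fold change over the table was -0.20 for unscaled arrays and -0.11 for median-centred ones, and at an unadjusted p under 0.05 they listed 178 higher and 754 lower, and 364 higher and 750 lower, against 669 and 397. Unscaled, Treml1 alone among the members changed sign, and with median-centred arrays none did. Dim signals limit Treml1, both Gp1bb probe sets and Itgb3.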

Other observations

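A further pair of probe sets is assigned to a member together with another gene and was not counted with the members. The probe set shared by Thbs1 and Pald1 had signals of 806, 609, 892 and 427 in Yaa, against 144, 192, 207 and 200 in wild type, a log2 difference of 1.75 ± 0.23 (SE; limma adjusted p = 0.091). All Yaa arrays were above all wild-type arrays, with Yaa 3 highest and Yaa 4 lowest in Yaa, the order of both Thbs1 probe sets. The probe set shared by Gp1bb and Septin5 was under the filter, with 69.1, 5.17, 15.3 and 26.8 in Yaa, against 12.3, 8.90, 14.9 and 9.76 in wild type.

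Among markers of the other cell types in the spleen, Kdr, a receptor for vascular endothelial growth factor, and Acta2, smooth muscle actin, were each higher in every Yaa array than in every wild-type array, unlike the rest of their lists. Their log2 fold changes were 0.53 ± 0.19 and 0.61 ± 0.18 (SE; limma adjusted p = 0.996 and 0.841). The other 8 tested endothelial markers and 4 tested stromal markers overlapped between the groups. Over all tested genes, 2.61% were higher without overlap and 1.86% lower. Kdr was dim, with a mean signal of 40.8 in Yaa and 23.9 in wild type, where the filter level was 25.7.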
